A study of Mus musculus and Homo sapiens with 32 samples.

Results

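The subject is a set of 237 short stretches of the mouse genome that were called as peaks with exactly the same first and last base in 5 separate peak lists. They were chosen by their called positions, with chromosome, start and end required to match to the base, out of 63040 distinct peaks in those lists. The lists come from bulk m6A-CT, in which an antibody against N6-methyladenosine (m6A) directs the Tn5 enzyme to cut RNA paired with its complementary DNA in permeable nuclei. The series has 32 libraries in 16 groups of 2, and each m6A-CT group has an input group, tagmented without antibody.

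The lists are from the mouse embryonic stem cell line E14, with 5K, 25K or 100K nuclei, from expanded potential stem cells at 100K nuclei (EPSC, labelled as the E14 line) and from CF1 mouse embryonic fibroblasts at 100K nuclei (MEF). All of these used an antibody from Synaptic Systems. Nuclei of E14 and EPSC were prepared in Triton X-100 and those of MEF in NP-40, so cell type and preparation cannot be told apart between them. A second set held C57BL/6 embryonic stem cells labelled Mettl3-/- (KO) or wild-type, with an antibody from MilliporeSigma; whether the KO was 1 clone is not given. That set gives exon blocks with gene names and 1 pooled value per genotype and library kind, and none of its values were used to choose the members. The lists held 4644 peaks for E14 at 5K, 3923 at 25K and 8052 at 100K, 12183 for EPSC and 38205 for MEF. Each list and each pooled column is a single value per group; spread between replicates was therefore not measured, and intervals cover counting error only. The depth of the 5 lists is unknown.

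m6A is placed on messenger RNA by a writer complex whose catalytic subunit is Mettl3 and whose partners include Wtap. In mammalian messenger RNA it is known to be common in long internal exons and around stop codons, where reader proteins bind it and affect RNA decay and translation. A peak caller marks stretches with more reads than a local background. The ends of a peak therefore follow from where reads pile up and from the caller's own minimum length. Whether any member carries m6A was not tested.

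Some members met the exon blocks of microRNA genes, whose short hairpins are shown because such a block can lie whole inside a member. The member at chr1:84692382-84692563 (mm9, as all member positions here) held the entire listed 75-bp block of Mir5126, which lies inside the exon block of Dner on the other strand. The member at chr12:27099754-27099934 held the entire listed 110-bp block of Mir6538, a gene picked out after its values were seen because it is a microRNA gene. The hairpins below are from RefSeq (GRCm38.p6), with each mature strand in capitals:
Mir5126 hairpin: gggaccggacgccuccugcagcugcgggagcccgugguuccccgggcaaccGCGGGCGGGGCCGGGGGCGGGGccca
Mir6538 hairpin: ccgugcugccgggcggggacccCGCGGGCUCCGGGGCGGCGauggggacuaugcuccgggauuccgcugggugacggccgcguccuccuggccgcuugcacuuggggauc

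The mature strands follow, with the seed (bases 2 to 8) in capitals:
mmu-miR-5126: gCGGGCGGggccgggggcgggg
mmu-miR-6538: cGCGGGCUccggggcggcg
The seeds differ, so the strands share no seed family. G and C made up 83.1% of the bases of the Mir5126 hairpin and 75.5% of Mir6538, against a median of 51.7% over 1005 mouse hairpins. They stood at percentiles 99.9 and 98.7 of those hairpins. A further microRNA gene, Mir1199, is listed as 1 region with 2210011C24Rik and is given by name alone. The bases of the other members were not read here.

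Length split the members into 2 classes, a division made after the lengths were seen and given without a test. Of the 237 members, 43 were 100 to 103 bp long, and 41 of these were exactly 100 bp, the shortest length in every list. The other 194 were 160 to 330 bp long, and all but 2 of them measured 172 to 186 bp, with a median of 182 bp. The exceptions were chr1:87761086-87761245 (160 bp) and chr2:72850727-72851056 (330 bp). The 5 longest members were the one of 330 bp and 4 of 185 or 186 bp: chr11:57539815-57540000, chr4:64785474-64785659, chr8:92872233-92872418 and chr9:42705818-42706002. Nothing lay between 103 and 160 bp.

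**Figure D1:**
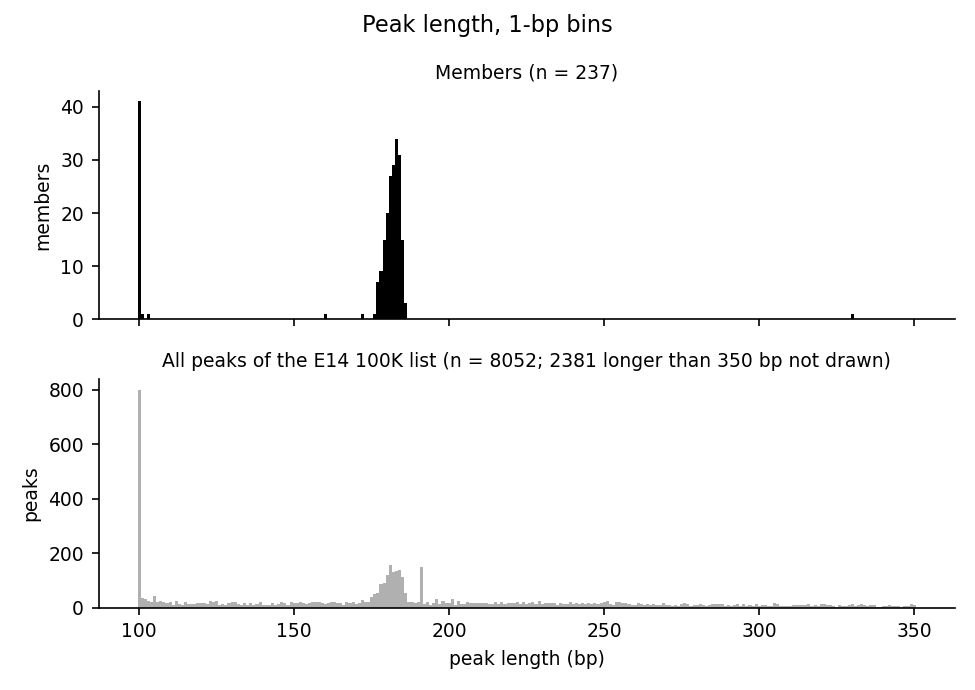
Number of peaks (vertical axes) at each length in bp (horizontal axis, 1-bp bins) for the 237 members above and the 8052 peaks of the E14 100K list below. The members fill a bar at 100 bp and a narrow hump of 172 to 186 bp, and the whole list adds a broad tail and a bar at 191 bp where no member falls.

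Lengths near 180 bp were most frequent among the members, though the share did not rise steadily with the number of lists. Lengths of 172 to 186 bp made up 81.0% of the members (Wilson 95% interval 75.5 to 85.5), against 49.8% of the 464 peaks identical in 4 lists, 51.4% of 405 in 3, 39.5% of 817 in 2 and 5.55% of the 61117 found in 1. Peaks of exactly 100 bp were 17.3% of the members (13.0 to 22.6), below the 43.5% among peaks identical in 4 lists and above the 3.15% among those found in 1. A length of 191 bp was frequent in each list, with 72, 65 and 151 such peaks in E14 at 5K, 25K and 100K, 331 in EPSC and 1027 in MEF. None of the 237 members had that length, which allows a share of up to 1.27%.

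MEF was the list that most often broke the match. Of the 464 peaks identical in 4 lists, 404 lacked MEF, 44 lacked E14 at 5K, 6 lacked E14 at 25K, 6 lacked EPSC and 4 lacked E14 at 100K. In 365 of the 404, the MEF list had no peak at that place at all, and in 39 it had one with other ends. In bulk material, fewer cells that hold an RNA and less of it per cell cannot be told apart. The regions closest to the rule, 16 in all, missed it by 1 bp in 1 list, with folds of 1.64 to 190 in E14 at 100K. The 3 of highest fold there are named after their values were seen: chr15:85508921-85509020 and chr2:73115971-73116070 began 1 bp earlier in E14 at 5K, and chr16:57167248-57167348 ended 1 bp earlier in MEF. Their folds in E14 at 100K were 190, 65.4 and 46.3.

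The 2 length classes also differed in where the highest point of the peak sat. In E14 at 100K the summit of 174 of 194 long members (89.7%) lay within 5 bp of the middle, against 4 of 43 short members (9.30%). Short members instead had their summit exactly 25 bp from the start in 16 of 43 cases (37.2%), against 0 of 194 long members, which allows a share of up to 1.55%. All peaks of the same lengths in that list had such summits too, with a central one in 69.3% of 1243 peaks of 172 to 186 bp and one at 25 bp in 19.0% of 799 peaks of 100 bp. The share of long members with a central summit was 89.2% in E14 at 5K, 89.2% at 25K, 87.6% in EPSC and 58.8% in MEF. Summits of the 4 stem cell lists lay within 10 bp of each other in 181 of 194 long members (93.3%) and in 13 of 43 short ones (30.2%). With MEF included these counts were 123 of 194 (63.4%) and 6 of 43 (14.0%). Summits of the long class were thus close together in the stem cell lists and less often so with MEF, and those of the short class were scattered.

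Fold enrichment is the authors' value for a peak, and it ranks peaks within 1 list only; folds of different lists stand side by side here without being compared as levels. Fold and -log10 q come from the calls that chose the members, so they are described without a test. The 43 short members had median folds of 68.8, 58.1 and 35.9 in E14 at 5K, 25K and 100K, 23.1 in EPSC and 7.59 in MEF. These stood at median percentiles of 98.6, 98.0, 98.4, 98.7 and 86.7 of their own lists. The 194 long members had median folds of 6.85, 9.05, 9.55, 4.90 and 5.07 in the same order, at percentiles 59.9, 73.8, 82.2, 46.2 and 59.5. Short members were thus near the top of the 4 stem cell lists by fold, and long members were spread over them.

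**Figure D2:**
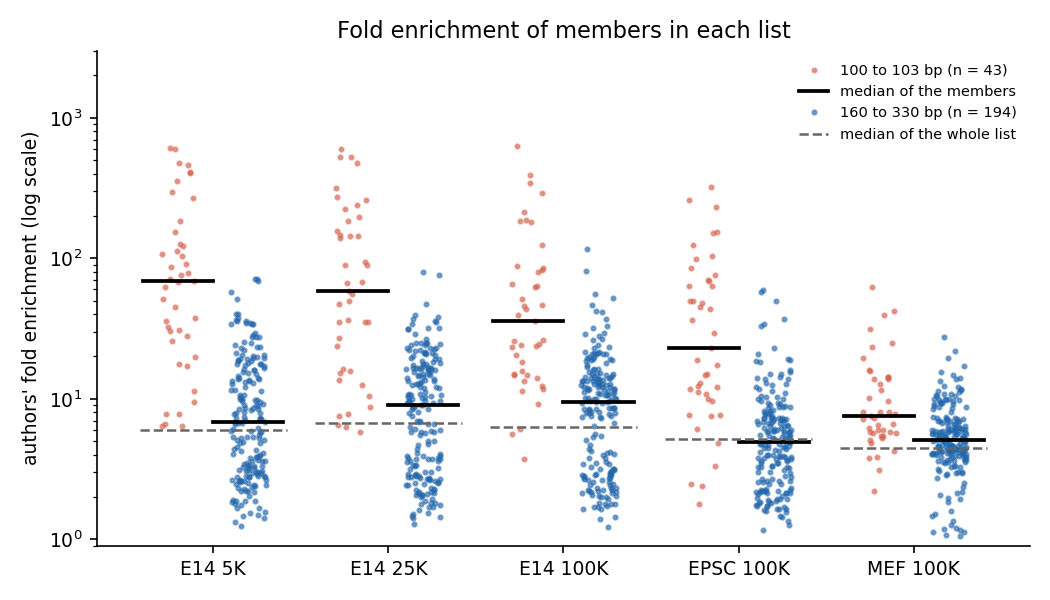
Authors' fold enrichment (vertical axis, log scale) of each member in the 5 lists (horizontal axis), with members of 100 to 103 bp in red and of 160 to 330 bp in blue. Solid bars are medians of the members, for example 35.9 and 9.55 in E14 at 100K, and dashed lines are medians of the whole lists.

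The 10 members with the highest median percentile were all 100 bp long. The first of them, chr19:8402806-8402905, had folds of 596, 597 and 293 in E14 at 5K, 25K and 100K, 63.4 in EPSC and 6.24 in MEF. The member with the highest fold in E14 at 100K, chr16:57441901-57442000, had 460, 476 and 626 in E14, 320 in EPSC and 2.20 in MEF. The MEF value is the lowest of any short member, so its place near the top did not extend to the fibroblast list. The member chr14:50933979-50934078 had 412, 238, 124, 63.4 and 31.3, and chr5:147250241-147250340 had 267, 184, 15.1, 76.0 and 62.9. The last of these was the highest MEF fold among members. The others of the 10 were chr16:57405122-57405221, chr16:57635513-57635612, chr19:8530734-8530833, chr3:62190244-62190343, chr6:146096224-146096323 and chr9:4328961-4329060, with folds of 79.4 to 389 in E14 at 100K. Over the 43 short members, folds in E14 at 25K and at 100K were ordered much alike (Spearman's rho 0.75), while E14 at 100K and MEF were not (rho -0.05). These correlations describe 43 points that share libraries, a minimum length and neighbouring positions.

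The 5 members with the lowest median percentile were long ones. Folds at chr15:83610484-83610664 were 1.55, 1.28 and 1.39 in E14 at 5K, 25K and 100K, 1.43 in EPSC and 1.95 in MEF. The others were chr15:76487083-76487266 in Cyhr1, chr1:153635932-153636108 within the listed span of Edem3 (a mannosidase-like protein of the endoplasmic reticulum), chr11:59661819-59662001 in Nt5m (a mitochondrial nucleotidase) and chr6:53017895-53018072. Their folds in E14 at 100K were 1.69 to 1.79.

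Long members fell into a low and a high band of fold in E14 at 25K and 100K, and not in E14 at 5K, EPSC or MEF. Counts at log2 fold 1 to 2, 2 to 3 and 3 to 4 were 52, 23 and 48 at 25K. They were 49, 21 and 71 at 100K, and 53, 38 and 38 at 5K, where no dip was seen. The classes that follow are of unequal width on that scale. In E14 at 100K, 62 of the 194 had a fold under 4, 21 had 4 to 8 and 111 had at least 8. These counts were 69, 38 and 87 in E14 at 5K and 67, 23 and 104 at 25K. They were 80, 69 and 45 in EPSC and 50, 106 and 38 in MEF, and in MEF the middle held the most. In all 3 E14 lists 52 long members were under 4, of which 51 were so in EPSC too, and 20 in all 5 lists. At the other end, 72 had at least 8 in all 3 E14 lists, 17 of these also in EPSC and 7 in all 5. A fixed limit of 8 passes fewer peaks in a list of lower folds, so these counts do not show whether the order was kept. Over the 194 long members, Spearman's rho with E14 at 100K was 0.89 for EPSC and 0.65 for MEF. By the E14 100K bands, the low band lay closer to named exons, with a median distance of 2921 bp to a listed exon block, against 24094 bp for the high band. Of the low band 30.6% met such a block (19 of 62, interval 20.6 to 43.0), against 15.3% of the high band (17 of 111, 9.79 to 23.2). These intervals overlap.

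A low fold did not mean a low -log10 q. In E14 at 5K, 25K and 100K, EPSC and MEF, 47, 48, 49, 57 and 26 members had a fold under 3. Their median -log10 q was 247, 426, 537, 388 and 32.0, whereas all peaks of those lists with a fold under 3 had medians of 15.6, 17.4, 16.0, 16.4 and 19.5. Members of low fold thus stood far above such peaks in the stem cell lists and nearer to them in MEF. Among the 100 peaks of highest -log10 q, members took 42, 39, 36 and 36 places in E14 at 5K, 25K and 100K and in EPSC, and 10 in MEF. Members are 5.10%, 6.04%, 2.94%, 1.95% and 0.620% of those lists. The highest -log10 q of a member was at chr7:55392847-55393030 in all 5 lists, from 299934 in E14 at 5K to 20924 in MEF, with folds of 27.7 and 5.49 there.

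**Figure D3:**
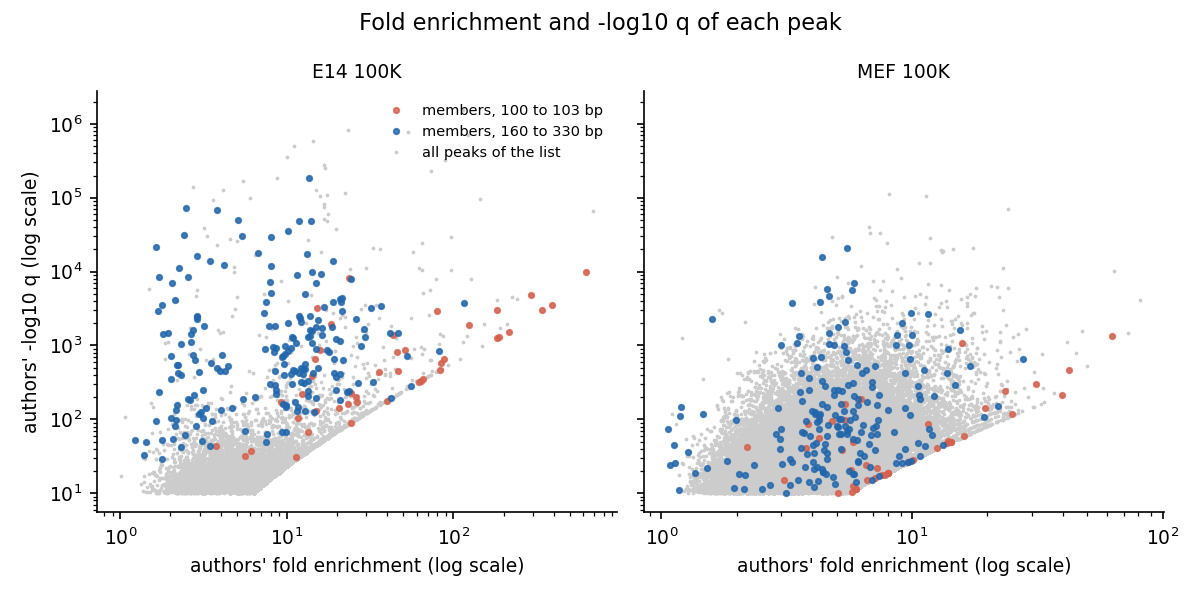
Authors' -log10 q (vertical axis) against fold enrichment (horizontal axis), both on log scales, for all peaks (grey) and members (red, 100 to 103 bp; blue, 160 to 330 bp) of the E14 100K and MEF 100K lists. In E14 the long members sit above the grey mass, with the 62 of fold under 4 on the left, and in MEF they overlap it more. Their median percentile of -log10 q was 97.0 in E14 at 100K and 83.8 in MEF.

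The 2 classes were also laid out differently along chromosomes. Short members came in stretches: with a gap of up to 200 kb allowed, 27 of the 43 lay in 10 stretches of at least 2. The widest of these held 5 members over 230491 bp at chr16:57405122-57635612, where the E14 lists had 23, 30 and 22 peaks at 5K, 25K and 100K, EPSC 17 and MEF 11. No exon block listed in the genotype files lay within 203926 bp of any of the 5. Stretches of 3 were at chr19:8402806-8530833, chr5:147158315-147250340, chr7:55125688-55322697 and chr9:4266396-4413729. The closest pair, chr4:136512152-136512251 and chr4:136512796-136512895, was separated by 544 bp and held the only members within 10 kb of another. Its first member had folds of 7.74, 6.54, 87.8, 70.4 and 3.79, and its second 37.6, 7.60, 14.1, 10.9 and 4.27. Folds of this pair were thus close in E14 at 25K and in MEF, and apart in E14 at 5K and 100K and in EPSC.

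Within 100 kb of another of their class lay 21 of 43 short members (48.8%, interval 34.6 to 63.2) and 6 of 194 long ones (3.09%, 1.43 to 6.58). The median distance to the nearest of their class was 112010 bp for short members and 3.30e+06 bp for long ones. Of the other 559 regions met by a peak in all 5 lists, 35.6% were within 100 kb of another of the 559. The same held for 81.8% of the peaks of the E14 100K list. Sets of different size are spaced differently by their number alone, which was not removed here. Only 1 of the 10 stretches had a long member within 200 kb, the one on chromosome 7, next to the member of highest -log10 q. Members were on all autosomes and on X (5 members); none was on Y or on the mitochondrial sequence, where E14 at 100K had 17 and 2 peaks. Chromosome 2 held 24 members (10.1%, against 8.13% of E14 100K peaks), 5 held 22 (9.28% against 5.29%) and 4 held 18 (7.59% against 7.20%).

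**Figure D4:**
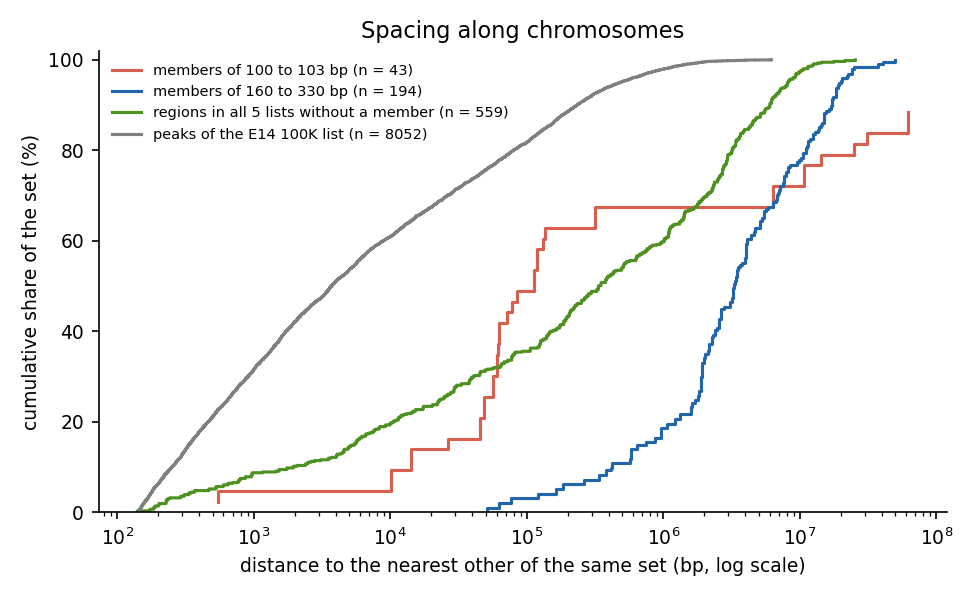
Cumulative share of each set (vertical axis, %) by distance to the nearest other of the same set (horizontal axis, bp, log scale). At 100 kb the curve stands at 48.8% for short members, 3.09% for long members, 35.6% for regions in all 5 lists without a member and 81.8% for E14 100K peaks; sets with a lone item on a chromosome end below 100%.

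Exon blocks of the genotype files gave the members names and were not used in choosing them. A member was counted if it shared at least 1 bp with a block on either strand, since the peaks have none. In all, 40 of the 237 members met a block (16.9%, interval 12.6 to 22.2), against 65.9% of all E14 100K peaks and 73.2% of the 559 other regions found in all 5 lists (69.3 to 76.7). All 40 were long members (20.6% of 194, interval 15.5 to 26.9). None of the 43 short members met one, which allows a share of up to 6.98%. Peaks of like length met blocks less often than whole lists did. For 172 to 186 bp the share was 27.6%, 24.6% and 31.6% in E14 at 5K, 25K and 100K, 42.2% in EPSC and 54.5% in MEF. For exactly 100 bp it was 27.4%, 16.0%, 18.9%, 25.2% and 40.3% in the same order. By file, 11 members met a block of the Mettl3 KO MeTPeak list, 10 one of the wild-type MeTPeak list, with 5 in both, and 39 one of the exomePeak2 table that compares the genotypes. The member met by a MeTPeak block alone was at chr2:127953261-127953444 in Bcl2l11, which encodes the pro-apoptotic protein Bim; it was named after its values were seen. Counting whole listed gene spans as well, 59 long members and 3 short ones lay inside the listed span of a gene (26.2% of the 237). The share was 73.5% for E14 100K peaks and 76.4% for the 559 other regions. A listed span covers only the blocks of these files, so a member outside all of them can still lie in a gene. The 3 short members inside a span, named after their values were seen, were in Msi1 (an RNA-binding protein), Txndc11 and Wasf3 (an actin regulator).

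Members in exons sat at the 5' ends of the listed spans of their genes. For 33 of the 40 the listed blocks of the gene spanned at least 1 kb, and 27 of these members (81.8%, interval 65.6 to 91.4) had their middle within 1 kb of the 5' end of that span. The same was true of 4.65% of 5272 E14 100K peaks (4.11 to 5.25) and of 9.88% of 405 other regions found in all 5 lists (7.34 to 13.2). For peaks of the other lists it was 10.5% in E14 at 5K, 8.63% at 25K, 4.15% in EPSC and 7.82% in MEF. In spans little over 1 kb most places lie within 1 kb of the 5' end, and peaks of like length were not compared. Of the 33, 23 were in the first 10% of the span and none in the last 10% (0 of 33, which allows a share of up to 9.09%), while 36.8% of the E14 100K peaks in named exons were in the last 10%. The member in Abi2, which encodes an Abl interactor, was 115 bp from the 5' end, that in Itsn1 (an endocytic scaffold) 99 bp and that in Stag3 (a meiotic cohesin subunit) 58 bp. In Ccne2 (cyclin E2) it was 182 bp and in Gtf2i (the transcription factor TFII-I) 206.5 bp. The members far from the 5' end were in Chd5 (a chromatin remodeller outside the naming rule), Cyhr1, Gprin1, Pou4f1 and Prickle2, and 1 of the 2 in Sdk1, at 804648 bp, while the other lay at 293 bp. The span is that of the blocks listed in these files and can start short of, or beyond, the gene's own start. This look at position was added after the data had been seen.

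Because of that position, the 250 bases before the start of 3 of these genes are shown, from RefSeq (GRCm38.p6), with each CG pair in capitals. These genes had the most reads in the genotype table among those with a member within 1 kb of the 5' end: Cadps2 (a secretion activator), Ube3c (a ubiquitin ligase) and Eif3f (a translation initiation factor subunit).
Cadps2: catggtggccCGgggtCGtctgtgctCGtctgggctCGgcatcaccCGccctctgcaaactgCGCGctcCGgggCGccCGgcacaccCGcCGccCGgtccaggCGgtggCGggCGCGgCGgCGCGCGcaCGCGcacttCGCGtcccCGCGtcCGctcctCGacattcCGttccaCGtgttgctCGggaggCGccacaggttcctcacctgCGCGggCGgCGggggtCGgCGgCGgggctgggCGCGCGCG
Ube3c: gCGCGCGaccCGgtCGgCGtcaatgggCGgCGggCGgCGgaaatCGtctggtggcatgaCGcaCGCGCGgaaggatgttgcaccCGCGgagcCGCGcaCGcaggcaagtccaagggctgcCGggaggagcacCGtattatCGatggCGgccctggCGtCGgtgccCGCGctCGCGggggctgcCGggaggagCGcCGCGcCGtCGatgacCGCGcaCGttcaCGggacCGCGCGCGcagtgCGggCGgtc
Eif3f: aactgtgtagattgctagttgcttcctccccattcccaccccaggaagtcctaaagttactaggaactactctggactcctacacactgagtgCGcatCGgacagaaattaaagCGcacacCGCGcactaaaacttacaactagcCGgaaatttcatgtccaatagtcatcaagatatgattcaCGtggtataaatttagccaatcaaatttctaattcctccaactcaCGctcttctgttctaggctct
The stretch of Cadps2 had 44 CG pairs, that of Ube3c 46 and that of Eif3f 8, and the median over 27025 genes was 6. They stood at percentiles 99.5, 99.7 and 57.9, so Eif3f did not share the density of the first 2. Of 2076 other genes whose exon block met an E14 100K peak, 1635 had a stretch, with a median of 20 CG pairs, so a count above 6 is common among such genes. Of the 28 genes with a member at the 5' end, 20 had a stretch, with a median of 24.5 CG pairs, near that of the other genes. In both sets under 80% of the genes had a stretch, so a comparison of the 2 sets was void.

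The genotype table asks whether m6A-CT over input changes in cells labelled Mettl3 KO, a direction that rests on the labels throughout. Its 1 region of Mettl3 held 2.47 RPM of input in cells labelled KO and 1.71 RPM in wild-type cells, and 5.33 RPM of m6A-CT in cells labelled KO and 1.50 RPM in wild-type cells. Reads there were thus not lower in cells labelled KO; the site of the deletion is not given in the sources used here, so the region does not check the labels. The table listed 33473 regions, of which members met 40, in 39 members; 2 of these regions share 1 member, Dner and Mir5126. The deposited RPM values (reads scaled to library size) gave back totals of 37532658 reads for Mettl3 KO m6A-CT, 51031598 for KO input, 39310394 for wild-type m6A-CT and 45090626 for wild-type input. A value belongs to the whole listed region, which was 50 to 53998 exonic bp long (median 375) and so often reached beyond the member. Per kb of listed exon, member regions had median RPM of 60.5 in KO m6A-CT and 15.4 in KO input, and of 53.0 in wild-type m6A-CT and 10.8 in wild-type input. Over all listed regions these medians were 10.9, 5.88, 18.5 and 5.76. Of the 40 member regions, 8 were among the 100 with most reads, led by Cadps2 (place 4) and Ankrd60 (place 7).

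By the deposited RPM, m6A-CT exceeded input at nearly all member regions, as at most listed regions. The ratio of m6A-CT to input was above 1 in 39 of 40 member regions in KO cells (97.5%) and in 40 of 40 in wild-type cells, against 83.7% in KO and 92.9% in wild-type cells over 31111 listed regions with reads in all 4 columns. Medians at member regions were 2.75 in KO and 3.79 in wild-type cells, against 1.96 and 3.39 over the table. This direction depends on the scaling. With the reads of the read-rich genes Lars2 and Rn45s left out of the totals, the ratio was above 1 in 22 of 40 member regions in KO and in 22 of 40 in wild-type cells, with medians of 1.15 and 1.41, against 38.3% and 61.1% over the table. Ratios below are by the deposited RPM. The exception was Wdr75, a ribosome biogenesis factor outside the naming rule, at 0.574 in KO and 1.24 in wild-type cells. In Ankrd60, an ankyrin repeat gene, KO cells had 902 RPM of m6A-CT over 460 of input, and wild-type cells 875 over 467. The ratios were 1.96 in KO and 1.88 in wild-type cells. Those of Stag3 were 1.11 and 1.11, and those of Gtf2i 1.37 and 1.40. In Wtap, the writer complex subunit, KO cells had 74.7 RPM over 68.1 and wild-type cells 69.8 over 61.0, so that both genotypes stood little above input, and below it without the reads of Lars2 and Rn45s.

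KO and wild-type values lay close together at many member regions. The log2 ratio of KO minus that of wild-type had a median of -0.36 over the 40 member regions, against -0.82 over those 31111 regions. It lay within 0.5 of 0 in 23 of the 40 (57.5%), against 22.0% of all. It was lower in KO in 32 regions and higher in 8. The 95% counting interval lay below 0 in 19, above 0 in 6 and held 0 in 15, whereas over the table it lay below 0 in 19661 regions, above in 3183 and held 0 in 8267. Without the reads of Lars2 and Rn45s, whose share of the reads differed between the genotypes, the medians were -0.20 for member regions and -0.65 for the table. The ratio was then lower in KO in 27 member regions and higher in 13, with the counting interval below 0 in 11, above 0 in 9 and holding 0 in 20. Reads outside those genes were 45.5% of KO m6A-CT, 19.0% of KO input, 63.5% of wild-type m6A-CT and 23.6% of wild-type input. Member regions held a median of 2016.5 reads over the 4 columns, against 407 over all listed regions. Regions of few reads spread more by counting error, and no set matched for reads was compared. With 1 value per genotype there is no test between replicates.

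Member regions differed among themselves. Ube3c had 975 RPM over 136 in KO and 802 over 82.6 in wild-type cells, giving ratios of 7.17 and 9.71. Itsn1 had ratios of 6.59 in KO and 9.69 in wild-type cells. Nnat, an imprinted gene of a small membrane protein, had 19.0 and 31.9, and Dmtn, an actin-bundling protein gene, 10.8 and 27.3. These 2 rest on few wild-type input reads, 81 for Nnat and 23 for Dmtn. Counting intervals of their log2 differences were -1.15 to -0.35 and -2.02 to -0.64. Wnt7b, which encodes a Wnt ligand, had 6.30 and 8.77, and Dner, which encodes a Notch ligand, 5.55 and 7.46. The 2 regions of the adhesion gene Sdk1 had 12.0 and 13.2 in KO and 17.3 and 17.0 in wild-type cells. All of these ratios were lower in KO, while m6A-CT RPM itself was higher in KO in each but Nnat, and input RPM was higher in KO in each. Input RPM was higher in KO in 34 of the 40 member regions (median log2 difference 0.42), against a median of -0.02 over the table; its part in the ratios was not tested.

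Of the 8 regions with a higher ratio in KO by the deposited RPM, 6 had a counting interval above 0. Gprin1, linked to neurite outgrowth, had the largest difference, with 96.1 RPM over 26.9 in KO and 57.7 over 28.3 in wild-type cells, a log2 difference of 0.81 (counting interval 0.67 to 0.94). Eif3f followed with ratios of 2.55 in KO and 1.97 in wild-type cells (0.37), then Ccne2 with 3.00 and 2.44 (0.30). Ap1s2, an adaptor subunit of clathrin coats, had 1.59 and 1.39 (0.19), Cadps2 2.37 and 2.21 (0.10) and Ankrd60 the values above (0.06).

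**Figure D5:**
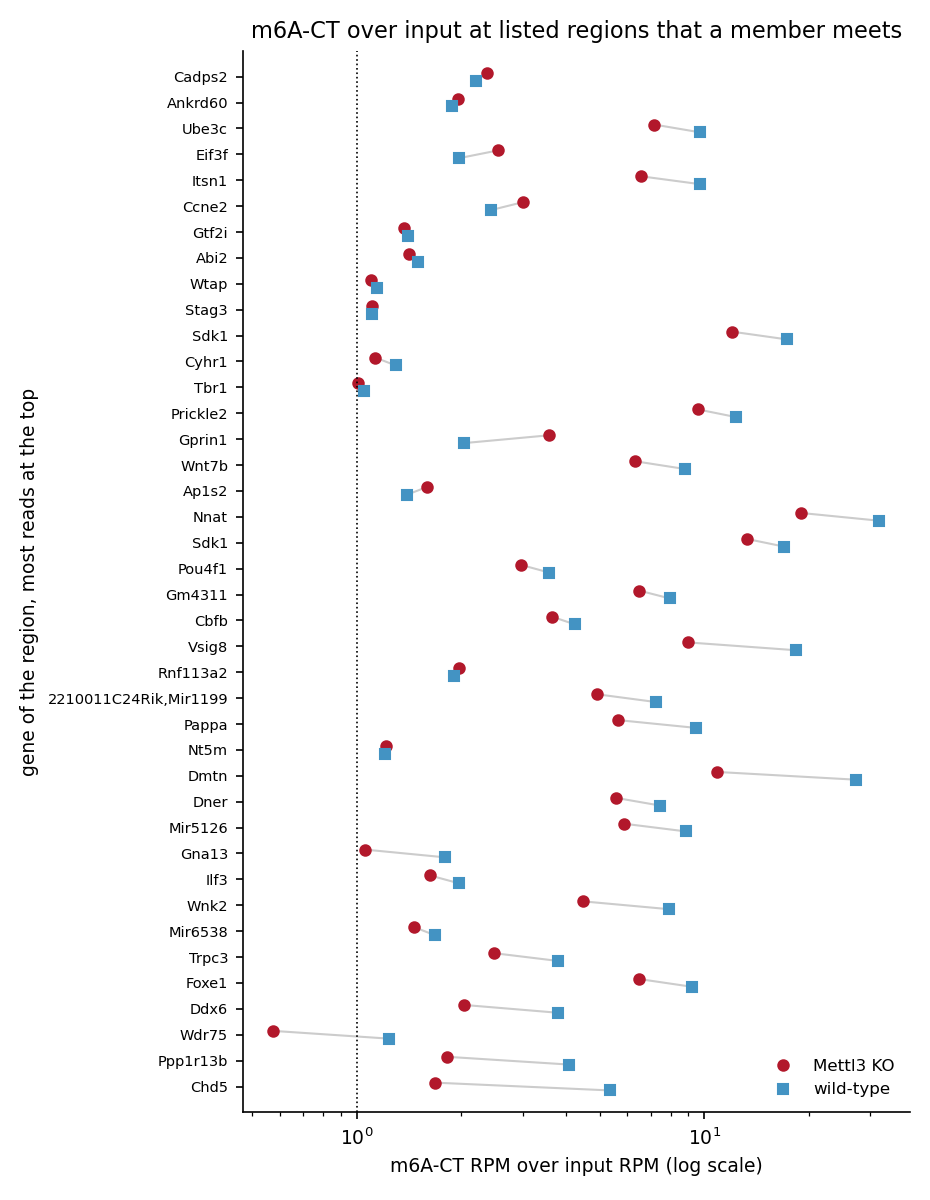
Ratio of deposited m6A-CT RPM to input RPM (horizontal axis, log scale) in Mettl3 KO (red circles) and wild-type (blue squares) cells for the 40 listed regions that a member meets, by gene, most reads at the top; the dotted line marks a ratio of 1. The 2 genotypes nearly coincide in regions such as Ankrd60, Stag3 and Nt5m, and stand apart in Dmtn and Vsig8, which had 23 and 52 wild-type input reads.

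In the authors' deposited table, 39 of the 40 member regions were lower in KO at an FDR under 0.05 and 1, Gprin1, was higher. The background there is 89% lower and 11% higher of 33395 regions with an FDR, so these counts are near the background and are not a result about the members. The authors' deposited log2 fold changes ran from -2.69 to 0.34 over the 40, with a median of -0.91, against -1.35 over all regions. Each of the 40 was lower than the log2 difference of RPM ratios, by a difference of -2.10 to -0.41 (median -0.52), the cause of which was not tested. Ankrd60 stood at -0.46 in the authors' deposited table and at 0.06 by RPM ratios.

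Fold in the stem cell lists and the ratio in the genotype set tended to run in the same order over these regions, and fold in MEF less so. In the 19 regions whose member had a fold under 4 in E14 at 100K, the ratio had a median of 1.63 in KO (range 1.01 to 3.63) and of 1.88 in wild-type cells (1.05 to 4.24). In the 17 with a fold of at least 8 the medians were 6.51 in KO (2.48 to 19.0) and 9.46 in wild-type cells (3.79 to 31.9). Spearman's rho between the E14 100K fold and the ratio was 0.74 for KO and 0.78 for wild-type cells. For the fold in E14 it was 0.69 and 0.75 at 25K and 0.55 and 0.64 at 5K. For the EPSC fold it was 0.75 and 0.78, and for the MEF fold 0.36 and 0.38. The 40 points share a build and a reference to input or background but neither libraries nor antibody, and 2 of them share a member.

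Genes that mark the labelled cell types had peaks in the lists but no member. Of 12 embryonic stem cell markers, 10, 9 and 10 had a peak in an exon block in E14 at 5K, 25K and 100K, 9 in EPSC and 4 in MEF. Of 12 fibroblast markers, 7 had a listed position, and 5 of those had a peak in MEF, 1 in EPSC and none in E14. The collagen genes Col1a1, Col1a2 and Col3a1 had no listed position, so a peak in them could not be counted. Of 14 read-rich or structured RNAs, 13 had a position, and none held a member. Members met exon blocks of 41 genes in all. By contrast, an E14 100K peak met exon blocks of 2076 genes besides the 28 with a member at the 5' end. Few genes of any kind thus held a member, and its absence from these short lists is not a result about the members.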

How the data were processed

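Each group has 2 libraries per the labels. The submitters' processing notes name Trim Galore, the aligner STAR 2.7.2, the peak caller MACS2 and, for mouse, the build mm9; settings and any pooling of replicates are not given in the sources used here. The deposited MACS2 lists give a score (-log10 q multiplied by 10 and cut to an integer), a fold (a ratio against a background that is not stated), -log10 p and -log10 q of at least 10, and the summit offset as one of the other columns. The deposited MeTPeak lists give a p-value, log10 of p and of FDR, a fold and a number of blocks, among other columns. The deposited exomePeak2 table gives RPM, 1 column per genotype and library kind, a log2 fold change, a p-value with FDR and a score. Its RPM values were whole multiples of 1 read within 0.01 reads in 100% of cases, which gave the totals.

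Members were matched to the base with pandas 2.3.3 on Python 3.11.15, and the rule recovered 200 of 200 planted peaks when tested on simulated data. The planted peaks had the same ends in all 5 lists, so this checks the matching step alone. Positions are 1-based mm9; the build of the genotype files is not given in the sources used here. Regions in all 5 lists are merged peaks sharing at least 1 bp. Shares carry Wilson 95% intervals, a share of 0 the limit of 3 counts, and ratios a counting interval from the reads of 4 columns; reads carry no molecular identifier, so PCR copies count as molecules. Listed gene spans over 2 Mb were left out. Gene symbols were matched to RefSeq, 40 as symbols and 1 as a synonym. The edgeR test planned for counts per replicate was not run, since the columns are pooled by genotype. The human list was not used. Members and lists were chosen with earlier results of these data known. Named members were the 10 highest and 5 lowest by median percentile of fold, the 5 longest, the 5 shortest of highest fold in E14 at 100K and those within 10 kb of another. Named genes were the 30 of most reads that a member meets, and exceptions are marked. Looser ends, fewer lists, a stricter q, other overlaps and distances and other RPM totals were tried as alternatives.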

Additional observations from a re-analysis of the deposited data

How the results depend on the processing

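Ends within 5 bp gave 297 members, within 10 bp 303, and the 3 lists at 100K nuclei alone 319, all within 1.5 times of 237; identity in at least 4 lists gave 701. With -log10 q of at least 20 in every list, 187 members were left, of which 26 were exactly 100 bp, against 41. Members that met an exon block numbered 31 at an overlap of at least 50% of the member, 10 with wild-type MeTPeak blocks alone and 11 with Mettl3 KO ones alone. The count near another member was 2 at 1 kb and 10 kb, 30 at 100 kb and 78 at 1 Mb. The median percentile of fold of all members, 79.0, 79.7, 87.4, 58.0 and 64.3 in E14 at 5K, 25K and 100K, EPSC and MEF, was 64.0, 69.7, 71.4, 52.7 and 54.0 among peaks of the same length. By -log10 q it was 94.5, 94.0, 96.8, 97.9 and 80.8. The median log2 ratio of KO minus wild-type was -0.28 at an overlap of at least 50%. Causes of these shifts were not tested.

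No paired analysis was possible because no column carries a replicate number. Leaving out a replicate was not possible for the same reason. The 5 lists have no stated depth and their folds no error. Names rest on blocks from stem cells, and genes of other cells are missing among them.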
